A study of Mus musculus with 12 samples.

Results

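The 10 genes described here encode enzymes that make NAD and NADP, namely Nmnat1, Nmnat2, Nmnat3, Nampt, Naprt, Nadsyn1, Qprt, Nadk, Nadk2 and Nmrk1, out of 21938 protein-coding genes of GENCODE mouse release 21 on the mm10 genome. They were chosen by name for their enzymatic role, and each was examined over its gene body and 10 kb on either side. Liver of C57BL/6 mice was profiled by ChIP-seq, and the data comprise 3 peak lists, each built from 2 ChIP libraries, within a series of 12 samples that includes the control libraries. LSD1, the lysine demethylase that removes methyl groups from H3K4 and H3K9, was mapped in wild-type liver. H3K4me2, a histone mark of active promoters and enhancers, was mapped in control and LSD1-LKO liver. Both H3K4me2 groups were LSD1 fl/fl mice given an AAV8 vector in adulthood, carrying GFP in the controls and Cre in the LSD1-LKO mice, with expression driven by the hepatocyte promoter TBG, which directs the deletion to hepatocytes. The control libraries are called input without antibody in the labels and IgG ChIP in the methods. The methods describe high-fat feeding of LSD1-LKO and control mice after the injection, but neither the labels nor the ChIP-seq methods name the diet of the livers sequenced here. Nothing in the labels says whether the 2 libraries of a group came from separate animals, so the spread between them may be technical.

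NAD is built in the liver by several routes that meet at common steps. Nampt starts the salvage of nicotinamide, Naprt the use of nicotinic acid, Qprt closes the de novo route from tryptophan, and Nmrk1 phosphorylates nicotinamide riboside. The products are joined to an adenylate group by the NMNAT enzymes, Nadsyn1 amidates the acid form to NAD, and the NAD kinases Nadk and Nadk2 convert NAD to NADP.

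A peak was listed where both libraries had called it, and no reads were used here, so the depth of the libraries is unknown. Each entry pairs a peak of 1 library, called first-listed here, with the peak of the other library that it overlaps, and a wide second-listed peak can be the partner of several first-listed peaks. Positions are those of the first-listed peak unless stated. The fold enrichment is the MACS ratio of ChIP signal over the control library. A percentile is the rank of a peak by its MACS p-value among all listed peaks of the same library, with the strongest peak at the top. Where 1 percentile is given for a peak, it ranks the peak within its list after averaging the −log10 p-values of its pair of libraries. Promoters are the 1 kb on either side of the start of any transcript of the gene (TSS), and every other peak in a gene region is called distal. Of 10 hepatocyte marker genes such as Alb, Apoa1 and Ttr, 9 had an H3K4me2 promoter peak in control, all but Cps1, and 10 in LSD1-LKO. Over all protein-coding genes the shares were 59.6% and 59.8%. Among 10 markers of other liver cells 2 and 3 had such a peak. These were Stab2 and Epcam in both lists and Lrat in LSD1-LKO alone, while Ptprc, Adgre1, Clec4f, Cdh5, Pecam1, Krt19 and Col1a1 had none in either list. The libraries were made from whole liver, where fewer cells with a mark and less mark per cell cannot be told apart.

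The promoter sequences below are shown because they hold a match to a motif named below or, at Qprt, lie by an LSD1 promoter peak. RefSeq promoter windows (GRCm38.p6, 250 bases before to 50 bases after the start) were matched for 8 of the 10 genes, all but Naprt and Nadk2. Capitals mark matches on either strand to the E-box CACGTG, the GABP motif CCGGAAGT or the ERR half-site AAGGTCA. The Nmnat1 promoter (chr4:149485161-149485460, minus strand) held 1 GABP match and no LSD1 peak, the Nadk promoter at the downstream start (chr4:155563565-155563864, plus strand) held 1 E-box, and the Nmnat3 promoter (chr9:98296320-98296619, plus strand) held 1 ERR half-site and ended just short of an LSD1 peak. The Qprt promoter (chr7:127121980-127122279, minus strand), which an LSD1 peak reached into, held none of the 3. These LSD1 positions are the first-listed ones. By the second-listed positions the LSD1 peak reached into the Nmnat3 window and stopped short of the Qprt window.
Nmnat1 promoter: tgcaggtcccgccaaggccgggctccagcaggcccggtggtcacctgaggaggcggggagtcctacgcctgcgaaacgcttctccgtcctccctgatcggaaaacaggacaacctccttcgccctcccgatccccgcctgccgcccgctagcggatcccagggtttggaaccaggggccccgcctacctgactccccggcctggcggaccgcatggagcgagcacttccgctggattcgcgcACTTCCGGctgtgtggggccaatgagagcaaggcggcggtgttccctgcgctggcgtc
Nadk promoter: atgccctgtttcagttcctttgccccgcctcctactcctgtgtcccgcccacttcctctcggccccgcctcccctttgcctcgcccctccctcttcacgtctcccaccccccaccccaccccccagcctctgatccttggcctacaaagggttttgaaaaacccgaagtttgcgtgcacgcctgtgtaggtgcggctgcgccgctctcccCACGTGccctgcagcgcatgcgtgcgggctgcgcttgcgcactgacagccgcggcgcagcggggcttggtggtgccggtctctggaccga
Nmnat3 promoter: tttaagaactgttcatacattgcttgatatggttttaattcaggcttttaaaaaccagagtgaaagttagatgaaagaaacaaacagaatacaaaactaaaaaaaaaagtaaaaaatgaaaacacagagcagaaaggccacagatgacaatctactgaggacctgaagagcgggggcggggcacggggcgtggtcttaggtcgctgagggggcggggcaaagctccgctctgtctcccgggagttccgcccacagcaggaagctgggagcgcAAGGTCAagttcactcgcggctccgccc
Qprt promoter: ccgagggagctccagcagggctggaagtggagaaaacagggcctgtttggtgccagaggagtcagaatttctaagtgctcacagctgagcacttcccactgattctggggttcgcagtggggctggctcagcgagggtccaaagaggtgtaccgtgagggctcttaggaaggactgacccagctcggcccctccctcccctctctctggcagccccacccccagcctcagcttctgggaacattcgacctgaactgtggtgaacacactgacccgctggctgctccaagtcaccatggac

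Among all 32851 promoter windows of the RefSeq table, 7.15% held the E-box, 3.89% the GABP motif and 4.72% the ERR half-site. The printed windows held 1 match at most, so no matches overlapped. The promoters also differed in CpG content. The Nmnat1 window held 28 CpG dinucleotides, the Nadk window 24, the Nmnat3 window 13 and the Qprt window 7, against a median of 7 over the table. The Nmnat2 window, where no list had a peak, held 17 and none of the 3 motifs. The windows of Nampt, Nadsyn1 and Nmrk1 and the upstream one of Nadk held none of these motifs either. Across the 10 windows of the 8 genes the count ran from 4, at the upstream start of Nadk, to 36, at Nampt.

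LSD1 peaks lay at the promoters of 3 of the 10 genes, Qprt, Nmnat3 and Nadk2, where 24.6% of all protein-coding genes had one. By second-listed positions the count was 4 genes, and with 1 TSS per gene it was 2. Distal LSD1 peaks lay in the regions of 5 genes, Nmnat2, Nmnat3, Nadsyn1, Nadk and Nadk2, against 28.5% of all genes. In all, 6 genes had at least 1 LSD1 peak, while Nampt, Naprt, Nmrk1 and Nmnat1 had none within 10 kb. Nadsyn1 is among the 6 through a peak at the promoter of its neighbour Dhcr7. The share of all genes with a peak of either kind was not computed. Of the 11 LSD1 peaks 4 were at promoters and 7 were distal. The gene regions ran from 23.5 kb at Naprt to 184.3 kb at Nmnat2 and came to 683.3 kb, with 1.61 LSD1 peaks per 100 kb against 0.866 per 100 kb over all protein-coding gene regions.

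**Figure D1:**
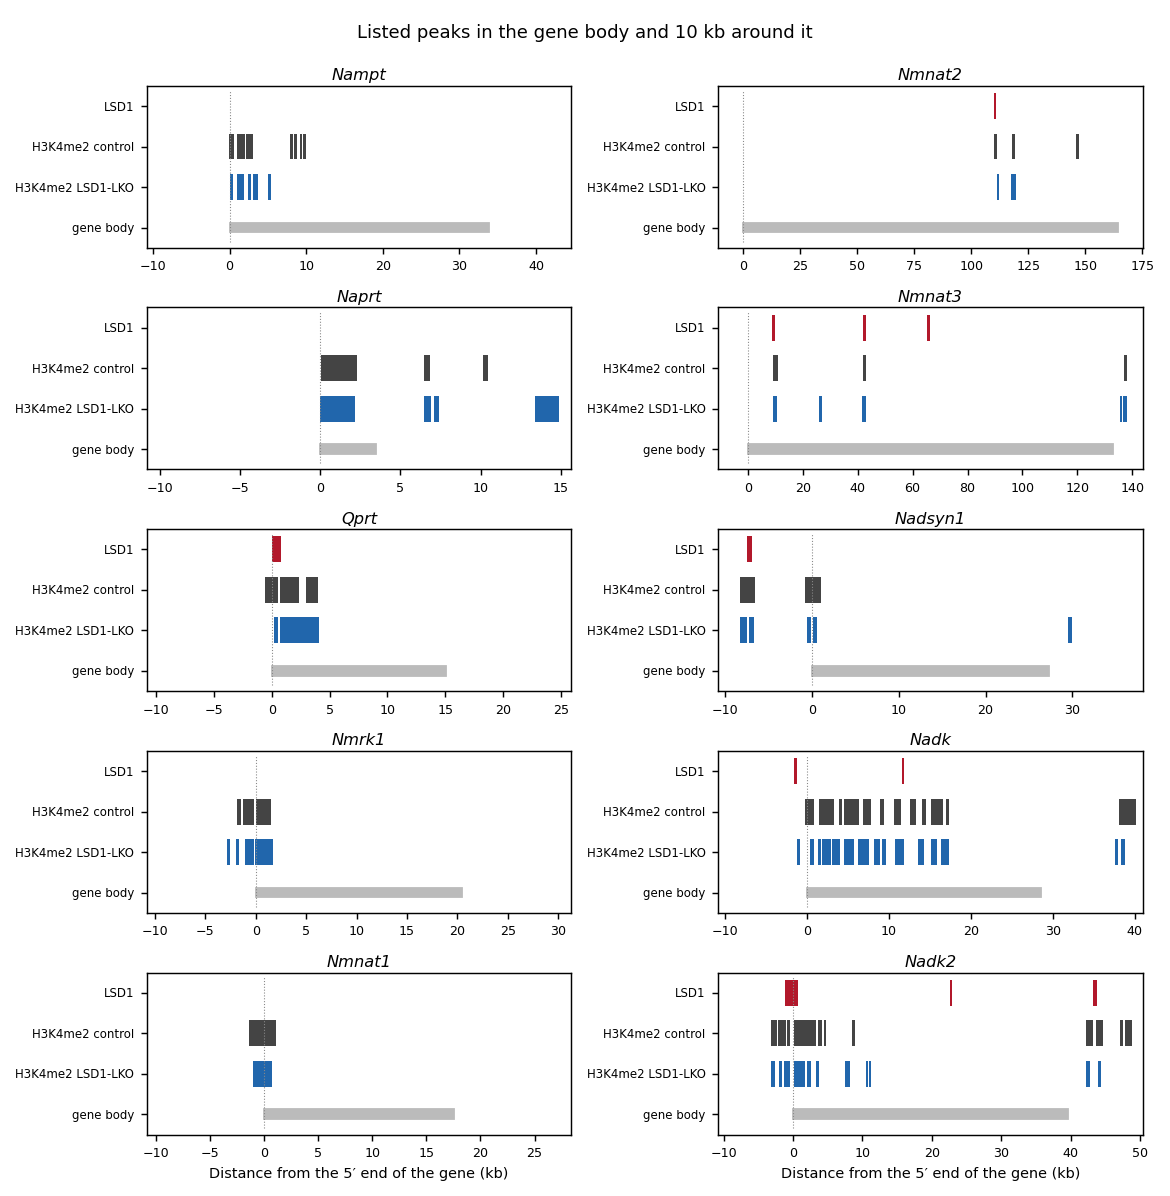
Positions of the listed peaks around each gene. The horizontal axis is the distance from the 5′ end of the gene in kb in the direction of transcription, on a scale of its own for each gene, and the rows show LSD1 peaks of wild-type liver (red), H3K4me2 peaks of control (dark grey) and LSD1-LKO liver (blue) and the gene body (light grey). Bars are as wide as the first-listed peak, with a minimum width so that narrow peaks can be seen, and Nmnat2 is the gene with no promoter peak in any list.

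The LSD1 peaks ran from the bottom to the upper part of their own list, with a median percentile of 56.6, and 2 of the 11 had a q-value at or below 0.05 in both libraries, as did 14.4% of the list, namely the one at the Nadk2 promoter and the one 42.4 kb into Nmnat3. The highest-ranking was at the Nadk2 promoter (chr15:9070075-9071959), at percentile 82.8, with a fold enrichment of 4.75 in the first-listed and 3.17 in the second-listed library. By its first-listed position it covered the 5′ end of the gene, the only LSD1 peak of the 10 genes to do so. Its second-listed interval (chr15:9070103-9071130) ended upstream of the 5′ end. The weakest was also at Nadk2 (chr15:9093855-9094207), near the start of a shorter transcript 22.8 kb into the gene, at 2.23 and 2.14 and percentile 3.6. The median fold enrichment over the whole LSD1 list was 2.9 in the first-listed and 3.0 in the second-listed library. Both libraries lay above these medians at Qprt, at the promoter of Nadk2 and at the 2 stronger peaks of Nmnat3.

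The Qprt peak (chr7:127121411-127122198) had a fold enrichment of 3.44 and 4.56 and percentile 78.1. Its centre lay 0.4 kb inside the gene, in the first intron. The intronic stretch next to the promoter window above (chr7:127121654-127121953, minus strand) is shown because it lies under this peak, with 5 CpG dinucleotides and none of the 3 motifs.
Qprt LSD1 peak window: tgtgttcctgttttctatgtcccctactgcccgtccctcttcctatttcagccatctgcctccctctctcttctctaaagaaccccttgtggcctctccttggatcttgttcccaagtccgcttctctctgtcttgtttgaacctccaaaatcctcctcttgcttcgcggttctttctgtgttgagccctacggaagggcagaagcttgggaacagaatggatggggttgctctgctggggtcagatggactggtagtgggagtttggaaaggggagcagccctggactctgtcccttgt

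Nmnat3, the mitochondrial NMNAT, had the most LSD1 peaks of the NMNAT genes. The promoter peak (chr9:98296641-98296947) was not at the 5′ end of the gene but at an alternative first exon 9.4 kb downstream, with a fold enrichment of 3.29 and 4.63 and percentile 79.6. The intronic peak at 42.4 kb (chr9:98329691-98330037) had 4.01 and 4.19 and percentile 81.6. Its central bases (chr9:98329714-98330013, plus strand) are shown because this is the highest-ranking distal LSD1 peak of the 10 genes, and they held 1 E-box, which 5.55% of the 14583 windows of this length at LSD1 peak centres also held.
Nmnat3 LSD1 peak window: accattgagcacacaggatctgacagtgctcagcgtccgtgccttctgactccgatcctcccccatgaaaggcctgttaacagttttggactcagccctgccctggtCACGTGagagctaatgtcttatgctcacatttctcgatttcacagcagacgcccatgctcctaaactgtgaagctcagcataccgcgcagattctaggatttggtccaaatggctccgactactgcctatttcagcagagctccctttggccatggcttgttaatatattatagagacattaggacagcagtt

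The remaining LSD1 peaks were distal. The third peak of Nmnat3 (chr9:98353056-98353338) was weak, at 2.37 and 2.47 and percentile 11.1. Nmnat2, the NMNAT known mainly from neurons, had 1 intronic peak 110.4 kb from its 5′ end (chr1:153065150-153065645), at 3.73 and 2.90 and percentile 56.6. The peak counted for Nadsyn1 (chr7:143829762-143830346) lay 7.2 kb upstream inside Dhcr7, a gene of cholesterol synthesis, within 1 kb of one of its starts, at 4.45 and 2.87 and percentile 74.8. It therefore belongs to the promoter of a neighbour by the same definition. Nadk had a peak 1.4 kb upstream (chr4:155560872-155561154), at 2.58 and 2.69, and another in an intron (chr4:155573973-155574255), at 2.46 and 2.69, at percentiles 25.1 and 28.6. With promoters of 2 kb on either side, or by its second-listed position, the first of these counts as a promoter peak. A peak downstream of Nadk2 lay inside Skp2 (chr15:9114455-9115070), at 2.54 and 2.85 and percentile 34.7.

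**Figure D2:**
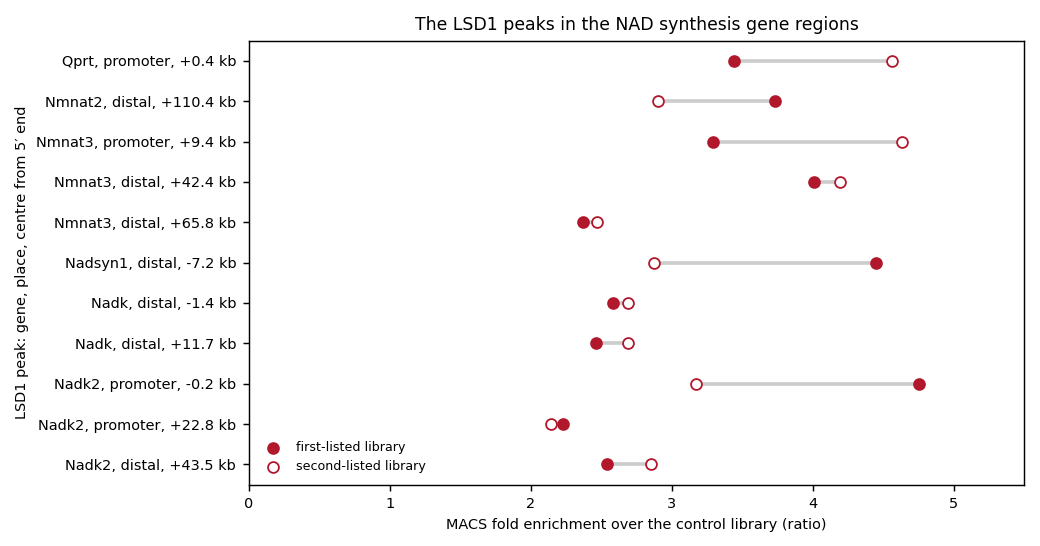
MACS fold enrichment of the 11 LSD1 peaks in wild-type liver, named by gene, place and distance of the centre from the 5′ end of the gene. Filled points are the first-listed and open points the second-listed library, joined by a grey line for each peak, and the values run from 2.14 to 4.75 with the order of the libraries differing from peak to peak.

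H3K4me2 promoter peaks were present at 9 of the 10 genes in control and at the same 9 in LSD1-LKO, against 59.6% and 59.8% of all protein-coding genes. The exception in both lists was Nmnat2. No gene of the 10 had a promoter peak in exactly 1 list, which 6.2% of all genes did. When only peaks reaching p = 1e-05 in each library were counted, 2 of the 10, Nampt and Nadk2, had one in control alone, and 13.6% of all genes had one in exactly 1 list. The gene regions held 49 control peaks, 18 at promoters and 31 distal, and 57 LSD1-LKO peaks, 18 and 39. Counted by the second-listed peaks, of which 1 can stand for several first-listed ones, the numbers were 38 and 39. The 49 and 57 first-listed peaks amounted to 7.17 and 8.34 peaks per 100 kb, against 2.93 and 3.36 over all gene regions. Of the 49 control peaks 37 overlapped an LSD1-LKO peak, as did 68.1% of the whole control list, and 41 of the 57 in LSD1-LKO were matched in control, as were 64.1% of that list. At promoters the overlap was 17 of 18 in either direction, where 86.9% of control and 87.1% of LSD1-LKO peaks at the promoters of any protein-coding gene overlapped. Among distal peaks 20 of 31 control and 24 of 39 LSD1-LKO peaks overlapped, against 53.3% and 48.3% of the peaks elsewhere in the gene regions of all protein-coding genes.

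The LSD1 peaks were set against the H3K4me2 peaks of the same regions. Of the 11 LSD1 peaks 7 overlapped a control H3K4me2 peak, where 52.5% of the whole LSD1 list did, and 6 overlapped an LSD1-LKO H3K4me2 peak, against 53.8%. The promoter peaks of Qprt and Nadk2, the promoter peak and the intronic peak at 42.4 kb of Nmnat3, and the peak inside Dhcr7 overlapped H3K4me2 in both lists. By first-listed positions, the intronic peak of Nmnat2 and the one inside Skp2 overlapped H3K4me2 in control alone. The intronic peak of Nadk overlapped it in LSD1-LKO alone. Another 3 peaks, the third of Nmnat3, the upstream one of Nadk and the internal one of Nadk2, overlapped it in neither list. By second-listed positions, the intronic peak of Nadk and the one inside Skp2 overlapped H3K4me2 in both lists. The upstream peak of Nadk then overlapped it in LSD1-LKO alone.

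The number of promoter bases under H3K4me2 peaks was compared next. With the first-listed libraries it was lower in LSD1-LKO for 7 of the 10 genes and higher for 2, while of the 13777 genes with a promoter peak in either list 59.8% were lower and 39.9% higher. The median difference was -459.5 bp over the 10 genes and -622 bp over the 9 with a promoter peak, against -114 bp over all those genes. With the second-listed libraries the pattern was not seen. There, 3 of the 10 genes were lower and 5 higher, against 42.4% and 52.6% of 13835 genes, and the median difference was 28 bp over the 10 genes and 25 bp over all. Both LSD1-LKO libraries lay below both control libraries at Nadk and Nadsyn1 and above them at Nmrk1, against 17.2% and 15% of the 13842 genes with any covered promoter base. These differences are given as a description, with no test, and the direction of the median depended on which library of each pair was used.

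**Figure D3:**
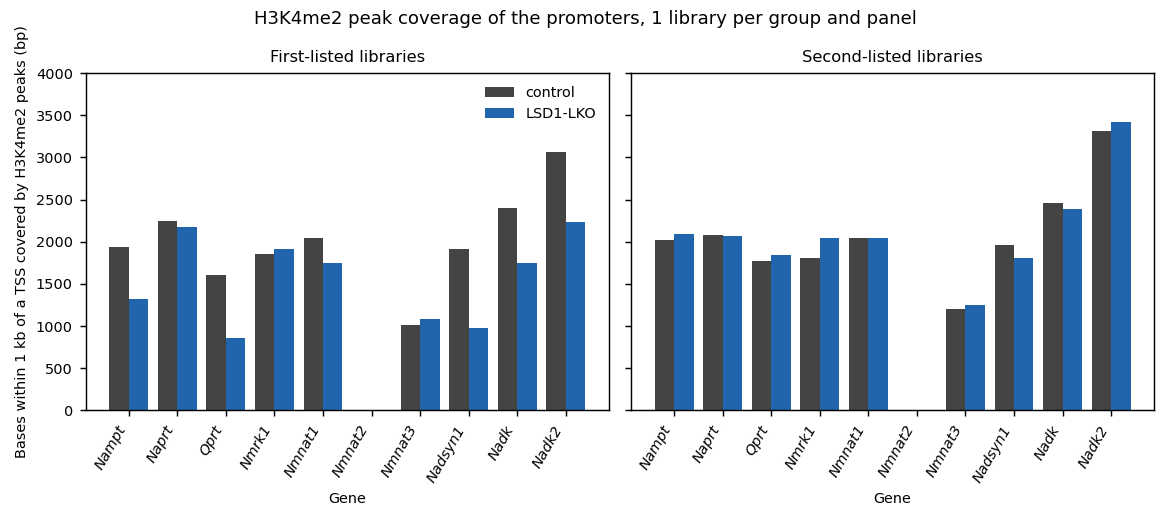
Bases within 1 kb of a TSS covered by H3K4me2 peaks, in bp, for each gene. Dark grey bars are control and blue bars LSD1-LKO, 1 library each, with the first-listed libraries on the left and the second-listed on the right. The blue bars of Nampt, Qprt, Nadsyn1, Nadk and Nadk2 are clearly shorter than the grey bars on the left and of similar height on the right, and Nmnat2 has no covered base.

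Among the enzymes of the separate routes, the pairs of libraries parted most at Nampt and Qprt. Nampt had 1943 covered promoter bases in control and 1321 in LSD1-LKO by the first-listed libraries, and 2019 and 2097 by the second-listed. Qprt had 1600 and 853, and 1768 and 1845. Both thus had less coverage in LSD1-LKO by one pair of libraries and slightly more by the other. Naprt had 2245 and 2179, and 2080 and 2064, and Nmrk1 had 1851 and 1912, and 1812 and 2049. The promoter of Nmrk1 is shared with Ostf1, whose nearest start lies 127 bp away.

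Nmnat1, which makes NAD in the nucleus, had a single H3K4me2 peak in each list and no other peak of any kind in its region. The control peak (chr4:149484105-149486544) was 2440 bp wide with a fold enrichment of 4.10 in the first-listed and 5.67 in the second-listed library. The LSD1-LKO peak (chr4:149484432-149486174) was 1743 bp wide at 5.54 and 6.51. The peak in LSD1-LKO liver was thus narrower and its enrichment values were not lower than those in control. In the second-listed libraries the widths were 3049 bp and 2544 bp, and both peaks spanned all 2040 promoter bases. The ChIP-qPCR primer pairs that the study lists for this promoter gave amplicons at chr4:149485683-149485801 and chr4:149485472-149485604, centred 540 and 336 bp upstream, and all 4 libraries had a listed H3K4me2 peak over both amplicons. By ChIP-qPCR the study reported less H3K4me2 at this promoter in LSD1-LKO than in control liver. That assay measures abundance at the amplicons, which listed peaks do not give. The peak width differed in the same direction as the ChIP-qPCR and the fold enrichment in the other, and neither difference was tested. The start of Lzic lies 27 bp from that of Nmnat1, so the peak cannot be assigned to one of the genes.

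Nmnat3 had 1018 covered promoter bases in control and 1081 in LSD1-LKO, and 1198 and 1254 by the second-listed libraries. Nmnat2 had 3 distal peaks in each list, all at 110.7 kb or farther from its 5′ end, the highest at percentile 50.6 in control and 68.9 in LSD1-LKO.

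Nadsyn1 had 1918 covered promoter bases in control and 982 in LSD1-LKO, and 1959 and 1803 by the second-listed libraries. In control 1 peak (chr7:143821789-143823706) spanned the start, while in LSD1-LKO 2 peaks flanked it (chr7:143822244-143822752 and chr7:143822998-143823470). These 2 first-listed peaks had the same second-listed partner, so that the gap at the start was present in the first-listed library only. The nearest start of Dhcr7 lies 296 bp from one of Nadsyn1, and this promoter is therefore shared as well.

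The NAD kinase genes had the most H3K4me2 peaks. Nadk had 12 in control and 15 in LSD1-LKO, strung along the gene to 17.2 kb from its 5′ end and again downstream near Slc35e2. Its covered promoter bases were 2403 in control and 1751 in LSD1-LKO, and 2464 and 2394 by the second-listed libraries. Nadk2, the mitochondrial NAD kinase, had 11 peaks in each list. It had 3066 covered promoter bases in control and 2231 in LSD1-LKO, and 3319 and 3418 by the second-listed libraries. The whole Nadk2 region differed in coverage by -3260 bp in LSD1-LKO by the first-listed libraries, the largest difference of the 10 regions. Over all 10 regions first-listed peaks covered 45812 bp (control) and 41709 bp (LSD1-LKO), with a median difference of -71.5 bp per region, and with the second-listed libraries the median turned to 544 bp.

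At the 5′ end of the gene itself, 5 genes had a control peak (Nmnat1, Nampt, Nadsyn1, Qprt and Nadk) and 3 an LSD1-LKO peak (Nmnat1, Naprt and Nmrk1) by the first-listed libraries, against 37.7% and 32.9% of all protein-coding genes. By the second-listed libraries 6 and 5 did, against 47.1% and 46.9%. Nmnat1 was the gene covered in all 4 libraries. The 5′ end of Nadk2, under the first-listed but not the second-listed LSD1 interval, was covered in none of the 4.

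The strength of the promoter peaks was compared by the percentile of the highest promoter peak of each gene in each library. Percentiles are ranks within 1 library, so in this comparison no MACS score was set against that of another library. Of the 9 genes with a promoter peak in both lists, both LSD1-LKO libraries lay below both control libraries for 2, Qprt and Nadk2, and above for 1, Nmnat1, and the groups overlapped for 6. Over the 12417 genes with a promoter peak in both lists the shares were 16.4% below and 17.9% above. The median difference between the group means was -2.71 over the 9 genes and 0.505 over all. With 2 libraries per group the exact permutation test cannot give a p below 0.33, so that no difference could pass a threshold of 0.05.

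At Nadk2 the control libraries were at percentiles 97.1 and 91.7 and the LSD1-LKO libraries at 27.9 and 80.8, with means of 94.4 and 54.4 and a difference of -40.0 (exact permutation test, two-sided, p = 0.33, n = 2 libraries per group). Most of it came from the first-listed LSD1-LKO library, since the difference was -69.2 with the first-listed and -10.9 with the second-listed libraries alone. It also depended on the width of the promoter, and was -15.0 with 2 kb on either side, where the LSD1-LKO peak at chr15:9073212-9073896 is counted too. Its difference was the largest of the 9 genes in the main comparison but not with the wider promoters or with the second-listed libraries alone. Qprt was at 77.6 and 77.8 in control and at 76.9 and 44.9 in LSD1-LKO, a difference of -16.8 (exact permutation test, two-sided, p = 0.33, n = 2 libraries per group), of which the first-listed libraries alone gave -0.791 and the second-listed -32.9. The low LSD1-LKO library was thus not the same one at these 2 genes.

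Nmnat1 was at 75.7 and 82.0 in control and at 93.6 and 86.8 in LSD1-LKO, a difference of 11.3 (exact permutation test, two-sided, p = 0.33, n = 2 libraries per group). The difference was 17.9 with the first-listed and 4.8 with the second-listed libraries alone, and 18.6 when peaks were ranked by fold enrichment.

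Among the genes whose groups overlapped, Nadsyn1 was at 83.8 and 67.1 in control and at 96.9 and 83.8 in LSD1-LKO. Nampt was at 94.6 and 74.9, and at 67.4 and 79.0. Naprt was at 83.8 and 92.9, and at 94.9 and 51.6. The LSD1-LKO libraries of Naprt thus lay on either side of its control libraries. Nmrk1 was at 86.1 and 84.0 in control and at 99.1 and 74.9 in LSD1-LKO. Nmnat3 was at 84.7 and 84.0, and at 73.6 and 89.6. Nadk was at 75.7 and 76.2, and at 69.6 and 86.8. At these 3 genes the control libraries lay much closer to each other than the LSD1-LKO libraries did. The exact permutation p was 0.667 for Nadsyn1 and Nampt and 1 for the other 4 genes (two-sided, n = 2 libraries per group).

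**Figure D4:**
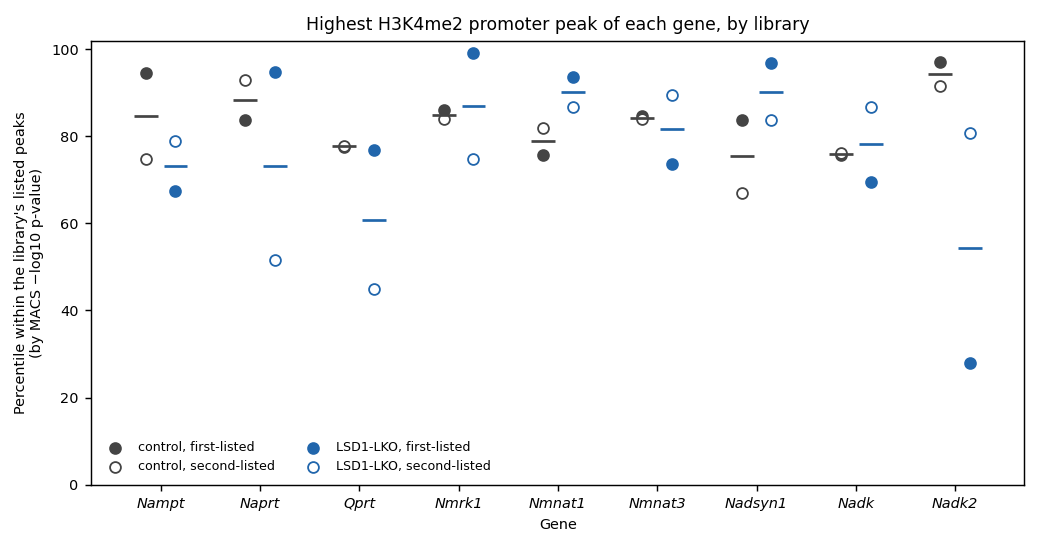
Percentile of the highest H3K4me2 promoter peak of each gene within the listed peaks of its library, by MACS −log10 p-value. Dark grey points are control and blue points LSD1-LKO libraries, filled for the first-listed and open for the second-listed, and the lines are the means of the 2 libraries. Both blue points lie below both grey points at Qprt and Nadk2 and above them at Nmnat1.

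The other genes of the pathway were described by the same counts. The kynurenine route, which feeds Qprt from tryptophan, was represented by 10 genes. LSD1 promoter peaks lay at 2 of them, Kyat1 (chr2:30205976-30206284), at 3.87 and 3.01, and Aadat (chr8:60505831-60506439), at 3.80 and 3.19, both aminotransferases that make kynurenic acid. An H3K4me2 promoter peak in exactly 1 list was found at 2 of the 10, against 6.2% of all genes. These were Tdo2, which opens the route in the liver, with 975 bp covered in control and 0 in LSD1-LKO by first-listed positions, and Ido1, which catalyses the same step elsewhere, with 0 and 336 bp. Peaks called in 1 library alone are not listed, so a promoter without a listed peak may still carry the mark. Coverage was lower in LSD1-LKO for 7 and higher for 3 by the first-listed libraries, with a median difference of -397 bp. Over all genes with a promoter peak in either list 59.8% were lower and 39.9% higher, with a median of -114 bp. By the second-listed libraries coverage was lower for 4 and higher for 6, against 42.4% and 52.6%. Distal LSD1 peaks lay in 7 of the 10 regions, against 28.5% of all genes, and the LSD1 promoter peaks at 2 of 10 stood against 24.6%.

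Of 12 other genes of NAD transport and use, 5 had an LSD1 promoter peak, against 24.6% of all genes. The peak at Parp1 (chr1:180568962-180569244), which consumes NAD in DNA repair, had 2.67 and 6.06 and the highest percentile of the 5, 86.3. The peak at Sarm1 (chr11:78498663-78499343), an NAD hydrolase, had 3.80 and 4.66 and percentile 81.6, and that at Parp2 (chr14:50807470-50808067) had 3.36 and 4.04 and percentile 80.4. Pnp (chr14:50944292-50944853), the purine nucleoside phosphorylase, had 3.0 and 3.43, and Slc25a51 (chr4:45408183-45408471), the mitochondrial NAD carrier, had 2.65 and 3.39. H3K4me2 promoter peaks were in both lists at 8 of the 12 and in neither at 4. Over all protein-coding genes 59.6% had one in control and 59.8% in LSD1-LKO. Coverage was lower in LSD1-LKO for 4 and higher for 4 by the first-listed libraries and lower for 2 and higher for 5 by the second-listed. The coverage shares over all genes with a promoter peak are those given for the kynurenine route.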

How the data were processed

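ChIP-seq peaks of LSD1 in wild-type liver and of H3K4me2 in control and LSD1-LKO liver were taken from 3 deposited lists. The authors mapped reads to mm10 with Bowtie2, called narrow peaks per library with MACS2 and intersected both libraries of a group with BEDtools (2.25.0, per the submitters' processing notes). The fold enrichment (a ratio) and the −log10 p-values and q-values in the deposited lists are the authors' MACS output for each library. The lists carry no replicate numbers and no reads, so depth is unknown and no confidence interval could be given. Another 12 columns of scores and summit offsets were not used.

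Promoters (1 kb on either side of any TSS), gene regions (10 kb flanks), coverage and overlaps of at least 1 bp were computed in Python 3.11.15 with numpy 2.4.6 and pandas 2.3.3 against GENCODE release 21, after chromosome lengths were checked, and overlap code was tested on simulated data and checked with BEDtools 2.31.1. Figures were drawn with matplotlib 3.10.9. Percentiles of 2 against 2 libraries were compared with the exact permutation test. Alternatives covered MACS threshold, promoter width, TSS choice, overlap, flank, library and ranking measure. All 10 genes are named by rule. Of the other pathway genes, those with an LSD1 promoter peak or with an H3K4me2 promoter peak in exactly 1 list are named. Peak sequences that overlap exons are not printed. The marker genes, and the shares over all genes for the second-listed libraries, 5′ ends and stricter p-values, were chosen after the data were seen. The genes, lists and tests were all chosen with earlier results of these data known. Some distal peaks are counted but not described one by one here.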

Additional observations from a re-analysis of the deposited data

How the results depend on the processing

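Of 144 values under alternatives, 14 of them chosen after seeing the data (starts of protein-coding transcripts alone), 126 were labelled the same, 11 moved and 7 reversed. Counts and medians over genes were labelled by a limit on the size of the change. Percentile differences of single genes were labelled by direction alone. Their size could thus differ and still be labelled the same, as at Nadk2, with -40.0 in the main comparison and -10.9 with the second-listed libraries alone. With MACS p-values at or below 1e-05 in both libraries, 1 gene, Nadk2, kept an LSD1 promoter peak, and the regions held 2 LSD1 peaks (1 over control H3K4me2), 23 control and 18 LSD1-LKO H3K4me2 peaks. LSD1-LKO promoter peaks were then at 7 genes and control ones at 9. The median percentile difference was 1.93, and Nampt and Nadk2 gave no value. With 1 TSS per gene the median was -13.4 and Nadk was at -35.6. Ranked by fold enrichment, Nadk was at -0.672. Without flanks, 35 control and 36 LSD1-LKO peaks were counted. With second-listed positions the median differences were 28 bp for promoter and 544 bp for region coverage, against -459.5 and -71.5 bp. Libraries taken alone, first-listed then second-listed, gave median percentile differences of -0.791 and 4.1. They gave -6.14 and 10.6 for Nadk, 11.1 and -41.4 for Naprt, -11.1 and 5.67 for Nmnat3, -27.2 and 4.1 for Nampt, and 12.9 and -9.09 for Nmrk1. The causes were not tested. No paired analysis was possible because the columns of the lists carry no replicate numbers. Depth is unknown, peaks found in 1 library are not listed, and a gene with no listed peak may still carry the mark.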
